A study of Homo sapiens with 18 samples.

Results

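The genes described here are those of the proteasome, taken as every gene of the deposited table whose symbol begins with PSM, a letter from A to G and a digit. The name rule found 51 of the 23621 genes. Of these, 48 encode proteasome parts or their helpers. They comprise 14 constitutive subunits of the 20S core particle, 17 subunits of the 19S regulatory particle, 3 immunoproteasome subunits, 2 tissue-restricted core subunits, 5 alternative activators or inhibitors and 7 assembly chaperones. The other 3 are not proteasome genes. PSMC3IP encodes a meiotic recombination factor, and PSMG3-AS1 and PSMD6-AS2 are antisense RNAs. A gene was tested where it had at least 1 FPKM in at least 3 libraries, which 48 of the 51 did. PSMA8 of the testis and PSMB11 of the thymus lay at about 0.1 FPKM in every group, at the table's lowest value, and PSMD6-AS2 stayed below the filter.

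The proteasome degrades proteins that carry ubiquitin chains. Its core particle is a barrel of alpha and beta rings, and the catalytic sites belong to the beta subunits PSMB5, PSMB6 and PSMB7. The regulatory particle caps the barrel, binds and removes ubiquitin and unfolds the substrate with a ring of ATPases. Interferon and immune cells induce PSMB8, PSMB9 and PSMB10, which replace the constitutive catalytic subunits and change which peptides are offered to HLA class I molecules. When proteasome activity is short, the membrane-anchored factor NRF1, encoded by NFE2L1, is processed and raises transcription of the subunit genes together. In gastrointestinal stromal tumor, which is usually driven by the receptor kinase KIT, proteasome inhibitors have been studied as agents that kill cultured tumor cells.

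RNA came from GIST-T1, a KIT-dependent cell line from a gastrointestinal stromal tumor. Cells received 500 nM imatinib, an inhibitor of KIT, for 6 h or 24 h, 500 nM JQ1, which displaces BET bromodomain proteins from chromatin, for 6 h or 24 h, or both drugs for 24 h, and control cells received DMSO for a time the labels do not give. Each of the 6 groups had 3 libraries. The labels do not say whether these were separate cultures, so each p-value reflects library-to-library spread alone, possibly of technical origin, and all results concern a single cell line.

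Values are FPKM, fragments scaled to transcript length and library size, as the authors deposited them. ERCC spike-in transcripts had been added in relation to cell number, and their summed FPKM lay between 6505 and 6948 in the 18 libraries, whereas the summed expression of all genes was lower in every treated library than in every DMSO library. The median log2 change of the 12771 tested genes was -0.69 for imatinib and -1.0003 for JQ1 at 6 h, and at 24 h -1.503 for imatinib, -1.49 for JQ1 and -2.05 for the combination. Counts of members are therefore given on the deposited scale and again after ratio rescaling, which sets each library's typical gene at a common level. A gene fell or rose on the deposited scale where the log2 change was at least 1 in size with an adjusted p under 0.05 (limma). It was higher or lower after rescaling where its adjusted p was below 0.05. In bulk RNA a lower level per cell and fewer cells with the transcript cannot be told apart. Of the markers checked, 9 of 9 GIST markers averaged 1 FPKM or more in DMSO, whereas the 5 endothelial markers summed to 0.504 to 0.967 FPKM over all libraries. The 6 epithelial markers summed to 43.2 to 45.6 FPKM with imatinib, 44.4 to 59.5 FPKM with JQ1 and 15.8 to 28.4 FPKM with both at 24 h, against 416 to 665 FPKM in DMSO, where KRT18 averaged 538 FPKM. The part of this in the proteasome values was not tested.

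The proteasome genes made up a smaller share of expression at 24 h than in DMSO. Their sum at 6 h was 13295 ± 504 FPKM with imatinib and 10574 ± 1076 FPKM with JQ1, against 21750 ± 4099 FPKM in DMSO (mean ± SD, n = 3 each). At 24 h the sum was 3149 ± 80.0 FPKM with imatinib, 5087 ± 605 FPKM with JQ1 and 2468 ± 726 FPKM with both. As a share of all FPKM without the MIR1244 rows, which held a large and changing part of the total, this was 1.66% for imatinib and 1.46% for JQ1 at 6 h, against 1.60% in DMSO. The 24 h values were 0.826% for imatinib, 1.14% for JQ1 and 0.873% for the combination. The 24 h shares of the 9 treated libraries, 0.811% to 1.15%, all lay below the lowest DMSO library, at 1.57%.

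After 24 h of imatinib, 46 of the 48 tested members fell, where 72.1% of all tested genes did. Their median log2 change was -2.73, against -1.503 over all genes. The fit adds 1 FPKM to each value, which understates the change of low genes, and the other genes were not matched to members by level. After rescaling 40 members were lower and 6 higher, against 38.9% and 43% of all genes. After 24 h of JQ1, 46 members fell too, with 75.3% of all genes, and their median was -2.18 against -1.49. Rescaled, 38 members were lower and 6 higher, against 42.4% and 36.6% of genes. With both drugs 47 fell, with 86% of all genes, and their median was -3.23 against -2.05. Rescaled, 42 were lower and 6 higher, against 44.4% and 38.7% of genes.

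At 6 h the members stood close to the other genes. After imatinib 7 fell, where 20% of all genes did, and 4 fell when DMSO replicate 3 was left out. The members' median of -0.73 lay beside -0.69 over all genes. Rescaled, 14 members were higher and 10 lower, against 31.6% and 30.6% of genes. After JQ1 30 fell, where 49.8% of genes did, with a median of -1.09 beside -1.0003. Rescaled, 17 were higher and 18 lower, against 32.7% and 38.1% of genes. With every library set to 1 total without MIR1244 the split was 5 higher and 31 lower. The share of all genes on that scale is not given here, so this split cannot be set against other genes. For 6 h of JQ1 the mean total was 0.532 of DMSO and the mean ratio factor 0.459, so the 2 scalings place every gene at different levels. The tested members differed less from each other than genes in general, which were not matched to them by level. Their interquartile range of log2 changes was 0.21, 0.40, 0.70, 0.58 and 0.74 in the 5 comparisons with DMSO, taken as 6 h of imatinib, 6 h of JQ1, 24 h of imatinib, 24 h of JQ1 and both, against 0.51, 0.61, 1.11, 0.92 and 1.203 over all tested genes. In these 5 comparisons 0 members rose (limma), and 0 had a positive change at an unadjusted p below 0.05. Shares of all genes that did so are not given here, so neither count can be set against genes in general.

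**Figure D1:**
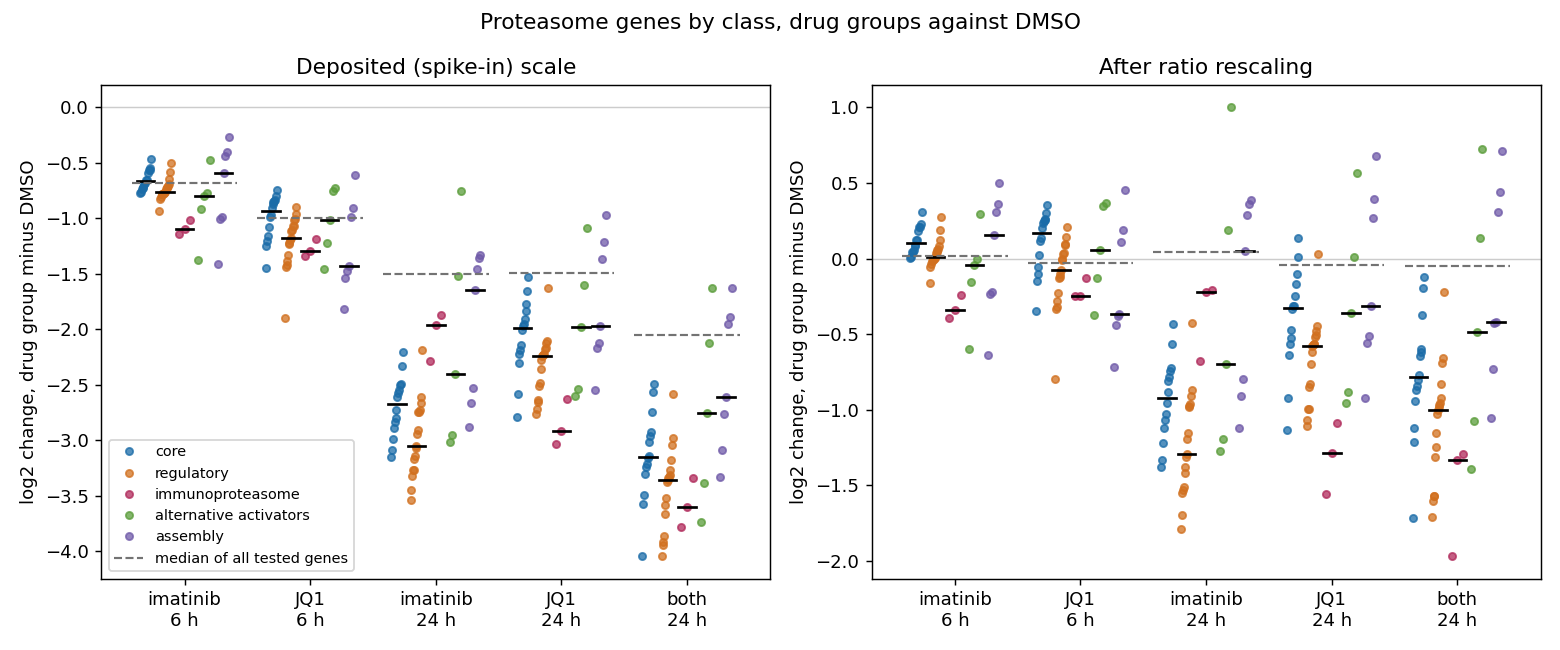
Log2 change of each tested proteasome gene against DMSO (points), by class, on the deposited scale (left) and after ratio rescaling (right). Black bars are class medians and dashed lines the median of all tested genes, and at 24 h of imatinib the core and regulatory medians of -2.67 and -3.06 lie below the all-gene median of -1.503.

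All 14 constitutive core subunits fell at 24 h in each drug group, where 72.1%, 75.3% and 86% of all genes did with imatinib, JQ1 and both. With imatinib at 24 h all 14 fell, from PSMA7 at -3.15 ± 0.19 (SE) to PSMB4 at -2.20 ± 0.19. All 14 were lower after rescaling, with a median of -0.92, where 38.9% of all genes were lower. With JQ1 at 24 h all 14 fell as well, from PSMB2 at -2.79 ± 0.20 to PSMB1 at -1.53 ± 0.19. Rescaled, 11 of the 14 were lower and PSMB1 alone was higher, at 0.14 ± 0.05, against 42.4% and 36.6% of genes. With both drugs all 14 fell, and PSMB2, a non-catalytic ring subunit, was lowest at -4.05 ± 0.20. Early on 0 of 14 fell after imatinib (limma), where 20% of all genes did. At an unadjusted p below 0.05, 14 had a lower level, but the share of all genes under that rule is not given here. With JQ1 at 6 h, 5 of 14 fell, led by PSMB5 at -1.45 ± 0.20, where 49.8% of all genes did. After rescaling the core was divided at 6 h of JQ1, with 8 subunits higher and 3 lower, against 32.7% and 38.1% of genes. The subunits ran from PSMB5 at -0.35 to PSMB3 at 0.36.

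PSMB5 carries the chymotrypsin-like site, which bortezomib blocks. It had 326, 311 and 336 FPKM after 6 h of imatinib and 186, 164 and 209 FPKM after 6 h of JQ1, against 416, 529 and 603 FPKM in DMSO. At 24 h it had 84.0, 85.3 and 84.8 FPKM with imatinib, 71.9, 82.5 and 101 FPKM with JQ1 and 32.1, 59.9 and 38.1 FPKM with both. Each treated library lay below each DMSO library, and those of imatinib and JQ1 at 24 h overlapped. The log2 changes at 24 h were -2.58 ± 0.20 with imatinib, -2.58 ± 0.20 with JQ1 and -3.57 ± 0.20 with both, and rescaled -0.81, -0.92 and -1.22.

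PSMB6, with the caspase-like site, fell by 2.80 ± 0.20 on the log2 scale after 24 h of imatinib, by 2.30 ± 0.20 after 24 h of JQ1 and by 3.49 ± 0.20 with both. PSMB7, with the trypsin-like site, fell by 2.51 ± 0.19, 2.19 ± 0.19 and 3.16 ± 0.19 in the same order. PSMA7, an alpha ring subunit and the most abundant core transcript per length, had 265, 284 and 268 FPKM after 24 h of imatinib and 532, 601 and 694 FPKM after 24 h of JQ1, against 2012, 2543 and 2804 FPKM in DMSO. The 3 groups did not overlap.

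The regulatory particle was lower still after imatinib. Its 17 subunits all fell at 24 h, where 72.1% of all genes did, with a median of -3.06 against -2.67 for the core. All 17 were lower after rescaling, with a median of -1.29, where 38.9% of genes were lower. The summed FPKM of the regulatory subunits relative to the core was 0.569 ± 0.0012 after 24 h of imatinib, 0.568 ± 0.0086 after 24 h of JQ1 and 0.541 ± 0.0306 with both, against 0.717 ± 0.0236 in DMSO (mean ± SD, n = 3 each). The 9 treated libraries lay between 0.517 and 0.578, and the 3 DMSO libraries between 0.693 and 0.740. At 6 h the same ratio was 0.656 ± 0.0237 after imatinib and 0.626 ± 0.0106 after JQ1. With JQ1 all 17 also fell at 24 h, with a median of -2.24, and 16 were lower after rescaling, against 75.3% and 42.4% of genes. With both all 17 fell, with a median of -3.36, where 86% of genes did.

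PSMD14 encodes the metalloprotease of the lid that cuts ubiquitin chains from substrates. It had the lowest log2 change of all members after 24 h of imatinib. Its level was 26.0, 29.9 and 27.9 FPKM with imatinib, 47.1, 52.4 and 58.7 FPKM with JQ1 and 14.5, 25.4 and 19.8 FPKM with both, against 271, 346 and 404 FPKM in DMSO. The imatinib libraries lay below the JQ1 libraries, and both lay below DMSO. The log2 changes were -3.54 ± 0.19, -2.65 ± 0.19 and -4.05 ± 0.19, and 1.39% of tested genes had a lower change with imatinib. At 6 h of imatinib the change was -0.69 ± 0.19, no call.

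The promoter of PSMD14 is shown because this gene fell furthest with imatinib and because its window holds letters shared by many regulatory subunits. Sequences are from RefSeq on GRCh38.p14, 250 bases before to 50 after the transcript start, at chr2:161308175-161308474 on the plus strand, and the deposited values themselves were made on hg19. Capitals mark 2 overlapping CCAAT boxes, 1 on each strand, and the ETS core CCGGAAG.
PSMD14: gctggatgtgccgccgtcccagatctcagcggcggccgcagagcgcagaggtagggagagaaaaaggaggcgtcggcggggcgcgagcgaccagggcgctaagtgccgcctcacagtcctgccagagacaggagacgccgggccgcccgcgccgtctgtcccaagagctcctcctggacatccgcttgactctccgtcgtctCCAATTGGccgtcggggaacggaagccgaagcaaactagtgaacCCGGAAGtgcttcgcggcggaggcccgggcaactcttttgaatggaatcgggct
A promoter was found for 40 of the 46 tested members with a role. The ETS core, searched as CCGGAAG on both strands, was in the window of 9 of 16 regulatory subunits (PSMC1, PSMC2, PSMC6, PSMD6, PSMD7, PSMD8, PSMD12, PSMD13 and PSMD14), 0 of 10 core subunits and 10.7% of all 27305 promoters. CCAAT, the letters bound by NF-Y, was in 8 of 16 regulatory, 6 of 10 core and 35.7% of all windows. TGACNNNGC, a core bound by NRF1 and NRF2, was in 4 of 16 regulatory, 1 of 10 core, 4 of 6 assembly and 13.6% of all windows. The E-box CACGTG was in 3 of the 40 windows and 7.43% of all. A match is a run of letters and not a binding site, and the motifs were chosen with earlier results of these data known.

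The ATPases and the lid otherwise stood close together. The next lowest with imatinib at 24 h were PSMD12 of the lid at -3.45 ± 0.19 and PSMD2, the large scaffold of the base, at -3.32 ± 0.20. The ATPase PSMC3 was at -3.27 ± 0.20. PSMD4, a ubiquitin receptor, was the highest of the class at -2.19 ± 0.20, and after rescaling at -0.43 ± 0.05. PSMD4 was also the highest with JQ1, at -1.63 ± 0.20, and with both, at -2.58 ± 0.20. Its rescaled value with JQ1 was 0.03 ± 0.05, no call.

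After 6 h of JQ1, 15 of the 17 regulatory subunits fell, where 49.8% of all genes did. After 6 h of imatinib 0 of 17 fell (limma), where 20% of all genes did. At an unadjusted p below 0.05, 17 had a lower level, but the share of all genes under that rule is not given here. Rescaled, 7 of the 17 were lower and 3 higher after JQ1, against 38.1% and 32.7% of genes. Their rescaled median was -0.07, against -0.03 over all genes. PSMD7, a lid subunit and partner of PSMD14, was lowest at -1.90 ± 0.19, and -0.80 ± 0.03 rescaled. It had 127, 114 and 132 FPKM after 6 h of JQ1, against 376, 480 and 559 FPKM in DMSO, and 308, 289 and 333 FPKM after 6 h of imatinib. The 3 groups did not overlap. Between 24 h and 6 h of JQ1 the change of PSMD7 was -0.46 ± 0.19, no call, while PSMD14 fell by 1.54 ± 0.19.

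The immunoproteasome subunits followed the drugs in another order. With imatinib at 24 h PSMB8, PSMB9 and PSMB10 fell by 2.29 ± 0.16, 1.87 ± 0.18 and 1.96 ± 0.19 on the log2 scale, less than the core median of 2.67. For PSMB8, at 4.31 FPKM with imatinib and 25.2 FPKM in DMSO on average, the added 1 FPKM understates this fall. Its ratio to PSMB5 overlapped DMSO in that group. With JQ1 at 24 h PSMB8, PSMB9 and PSMB10 fell by 3.03 ± 0.16, 2.63 ± 0.18 and 2.92 ± 0.19, more than the core median of 1.99. With both they fell by 3.78 ± 0.16, 3.35 ± 0.18 and 3.60 ± 0.19. Rescaled, the values of PSMB8, PSMB9 and PSMB10 were -0.68, -0.21 and -0.22 with imatinib, of which that of PSMB9 was no call, and -1.55, -1.09 and -1.29 with JQ1. At 6 h all 3 fell after imatinib, by 1.01 to 1.15, and after JQ1, by 1.19 to 1.34, where 20% and 49.8% of all genes did. The calls of PSMB9 and PSMB10 at 6 h of imatinib ended without DMSO replicate 3, at -0.92 and -0.86, and that of PSMB10 also without imatinib replicate 1, at -0.95.

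PSMB8, the counterpart of PSMB5, was low throughout. It had 3.73, 4.51 and 4.68 FPKM after 24 h of imatinib, 1.69, 2.69 and 2.18 FPKM after 24 h of JQ1 and 0.614, 1.13 and 0.947 FPKM with both, against 20.4, 25.8 and 29.3 FPKM in DMSO. The 4 groups did not overlap. PSMB10, the counterpart of PSMB7, was the most abundant of the 3 per length. It had 29.1, 25.3 and 29.2 FPKM after 24 h of imatinib, 12.4, 13.5 and 15.8 FPKM after 24 h of JQ1 and 6.17, 11.5 and 7.82 FPKM with both, against 90.6, 110 and 137 FPKM in DMSO, and again no 2 groups overlapped. PSMB9, the counterpart of PSMB6, had 8.64, 7.02 and 8.38 FPKM with imatinib, 4.14, 4.20 and 4.59 FPKM with JQ1 and 1.71, 3.06 and 2.09 FPKM with both at 24 h, against 22.5, 35.3 and 40.8 FPKM in DMSO.

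The promoter of PSMB10 is shown for the interferon response core, GAAANNGAA or its reverse complement, in capitals. It lies at chr16:67936801-67937100 on the minus strand of GRCh38.p14 (RefSeq).
PSMB10: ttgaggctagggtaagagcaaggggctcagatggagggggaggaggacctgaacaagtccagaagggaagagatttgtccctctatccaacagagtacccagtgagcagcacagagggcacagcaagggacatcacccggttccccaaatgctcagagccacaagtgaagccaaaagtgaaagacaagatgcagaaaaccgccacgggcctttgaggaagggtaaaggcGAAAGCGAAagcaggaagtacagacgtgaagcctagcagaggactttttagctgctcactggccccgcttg
The core begins at base 230 of the 300 of the window. The same letters were in 7 of the 40 windows of members with a role, those of PSMA4, PSMB4, PSMB10, PSMC2, PSME1, PSME2 and PSMG4, and in 8.29% of all promoters.

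Within each library the ratio of an immunoproteasome subunit to the core subunit it replaces does not depend on the scaling of that library. PSMB10 to PSMB7 was 42.3%, 33.8% and 39.7% with imatinib at 24 h, 15.6%, 15.3% and 15.2% with JQ1 and 17.7%, 18.6% and 17.8% with both, against 26.9%, 26.6% and 26.9% in DMSO. The ratio was thus above DMSO in each imatinib library and below it in each library with JQ1. PSMB9 to PSMB6 was 5.65%, 4.66% and 5.75% after 24 h of imatinib and 2.26%, 2.03% and 1.84% after 24 h of JQ1, against 2.66%, 3.37% and 3.16% in DMSO. With both it was 2.38%, 2.37% and 2.49%, below DMSO, but with 1 FPKM added to each value its difference turned to 0.15 log2 above DMSO. PSMB8 to PSMB5 was 2.35%, 3.26% and 2.15% after 24 h of JQ1 and 1.91%, 1.89% and 2.49% with both, against 4.90%, 4.87% and 4.87% in DMSO. For imatinib at 24 h it was 4.44%, 5.28% and 5.52% and overlapped DMSO. With 1 FPKM added to each value the log2 difference of PSMB8 to PSMB5 from DMSO was -0.45 with JQ1 and -0.21 with both, in place of -0.94 and -1.23.

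After 6 h of imatinib the 3 ratios were 3.31%, 2.05% and 22.6% for PSMB8, PSMB9 and PSMB10, against 4.88%, 3.06% and 26.8% in DMSO, each with no overlap. After 6 h of JQ1 they were 5.14%, 2.73% and 23.4%, and those of PSMB8 and PSMB9 overlapped DMSO. With 3 libraries a side, the smallest p that exact permutation (two-sided) allows is 0.1. Over the 15 ratios compared, each ratio that did not overlap DMSO had an exact permutation p = 0.1, with a Benjamini-Hochberg value of 0.125, so 0 of 15 passed and 0 could have.

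**Figure D2:**
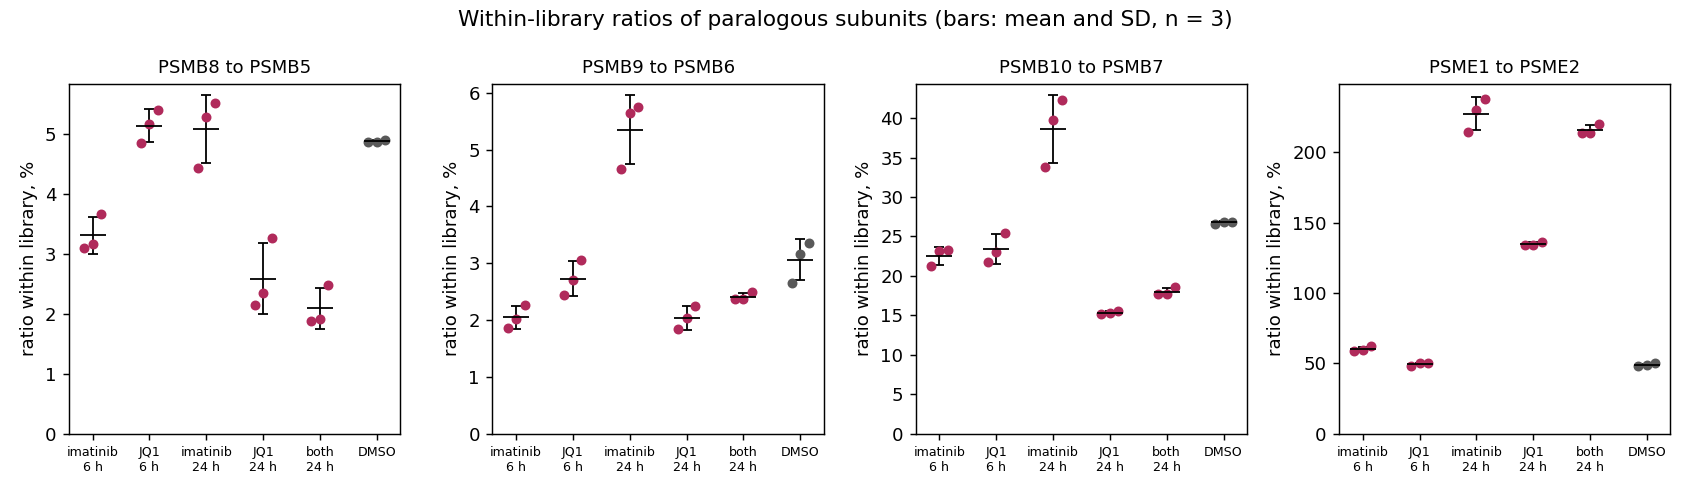
Ratio of each immunoproteasome subunit to the constitutive subunit it replaces, and of PSME1 to PSME2, in percent within each library (points), with mean and SD of 3 libraries (bars). PSMB10 to PSMB7 lies at 33.8% to 42.3% after 24 h of imatinib and at 15.2% to 15.6% after 24 h of JQ1, with DMSO at 26.6% to 26.9%.

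Genes of antigen processing and of the interferon pathway stood beside these subunits, from a list of 11. Of them 11 fell after 24 h of imatinib, 10 after 24 h of JQ1 and 11 with both, where 72.1%, 75.3% and 86% of all genes did. Medians were -1.56, -2.42 and -3.20, against -1.503, -1.49 and -2.05 over all genes. After rescaling, 5 were lower and 6 higher with imatinib, near the 38.9% and 43% of all genes. With JQ1 9 were lower and 2 higher, where 42.4% and 36.6% of genes were. The peptide transporter genes TAP1 and TAP2 fell by 2.43 and 3.33 with imatinib and by 3.45 and 3.44 with JQ1. The trimming peptidase ERAP2 was at -1.11 with imatinib and -3.46 with JQ1. NLRC5, the activator of HLA class I genes, was at -2.44 with imatinib and -2.42 with JQ1. B2M, the light chain of HLA class I, was at -1.02 with imatinib and -0.60 with JQ1, no call.

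Leukocytes carry much immunoproteasome, so their markers are given beside it. Of 10 leukocyte markers, PTPRC and CD3D lay at about 0.1 FPKM in every group, at the lowest value of the table. The summed level of the 10 markers was 4.72 to 5.28 FPKM after 24 h of imatinib, 2.52 to 3.67 FPKM after 24 h of JQ1 and 1.43 to 2.21 FPKM with both, against 14.1 to 18.03 FPKM in DMSO. The part of leukocyte RNA in the immunoproteasome values was not tested.

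Among the alternative activators, a pair of partners parted. PSME1 and PSME2 encode the alpha and beta subunits of PA28, a heteromeric ring that opens the core without ATP and is induced by interferon. PSME1 had 99.95, 100.4 and 101.5 FPKM after 24 h of imatinib, against 135, 183 and 202 FPKM in DMSO. PSME2 had 43.4, 42.2 and 47.3 FPKM after 24 h of imatinib, against 282, 365 and 416 FPKM in DMSO. PSME1 was at -0.76 ± 0.19, no call, and at 1.0001 ± 0.05 after rescaling, the highest of the members, whereas PSME2 fell by 2.95 ± 0.19 and was at -1.19 ± 0.05 rescaled. With JQ1 at 24 h PSME1 was at -1.09 ± 0.19 and PSME2 at -2.54 ± 0.19, and with both at -1.63 ± 0.19 and -3.74 ± 0.19. The call of PSME1 with JQ1 ended without DMSO replicate 3, at -0.97, and without the unnumbered JQ1 library, at -0.98.

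The ratio of PSME1 to PSME2 within a library was 230%, 238% and 215% with imatinib at 24 h, 134%, 136% and 134% with JQ1 and 220%, 214% and 214% with both, against 48.0%, 49.99% and 48.6% in DMSO. After 6 h it was 58.9%, 62.2% and 59.5% with imatinib and 48.5%, 50.4% and 49.97% with JQ1. The libraries of JQ1 at 6 h overlapped DMSO and the others did not. This ratio was chosen after its values were seen, so no test is given. Per length, PSME2 was the more abundant partner in DMSO and at 6 h, and PSME1 in all 9 libraries of 24 h.

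The promoters of both partners are shown because these genes parted. They lie at chr14:24135944-24136243 on the plus strand and chr14:24146561-24146860 on the minus strand of GRCh38.p14 (RefSeq). Capitals mark TGACNNNGC and the interferon response core, and the windows of both hold each of them.
PSME1: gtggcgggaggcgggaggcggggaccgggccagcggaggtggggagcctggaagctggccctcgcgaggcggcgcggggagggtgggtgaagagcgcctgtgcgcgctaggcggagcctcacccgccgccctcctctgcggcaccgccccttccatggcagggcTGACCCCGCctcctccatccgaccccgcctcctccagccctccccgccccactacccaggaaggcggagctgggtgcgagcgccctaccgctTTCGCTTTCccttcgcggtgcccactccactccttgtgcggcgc
PSME2: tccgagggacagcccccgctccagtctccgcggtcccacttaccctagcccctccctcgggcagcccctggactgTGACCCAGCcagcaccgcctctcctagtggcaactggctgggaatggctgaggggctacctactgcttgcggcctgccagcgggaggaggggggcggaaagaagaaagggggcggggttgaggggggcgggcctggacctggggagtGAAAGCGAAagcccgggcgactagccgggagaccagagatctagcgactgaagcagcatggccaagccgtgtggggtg
The interferon response core begins at base 257 of the PSME1 window, in its reverse complement, and at base 223 of the PSME2 window. TGACNNNGC begins at base 165 of the PSME1 window and base 76 of the PSME2 window.

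PSME3, the nuclear PA28 gamma ring that works without ubiquitin, fell early and late. It had 17.8, 18.3 and 18.3 FPKM after 24 h of imatinib and 21.8, 24.4 and 27.7 FPKM after 24 h of JQ1, against 124, 154 and 191 FPKM in DMSO. Its log2 change was -1.37 ± 0.19 after 6 h of imatinib, and -3.01 ± 0.19, -2.60 ± 0.19 and -3.39 ± 0.19 at 24 h with imatinib, JQ1 and both. PSME4, the single-chain activator PA200, fell by 2.41 ± 0.18, 1.98 ± 0.18 and 2.76 ± 0.18 at 24 h in the same order. PSMF1, the proteasome inhibitor PI31, fell by 1.52 ± 0.19, 1.60 ± 0.19 and 2.13 ± 0.19, and after rescaling it was at 0.19, 0.01 and 0.14, higher with imatinib and with both.

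**Figure D3:**
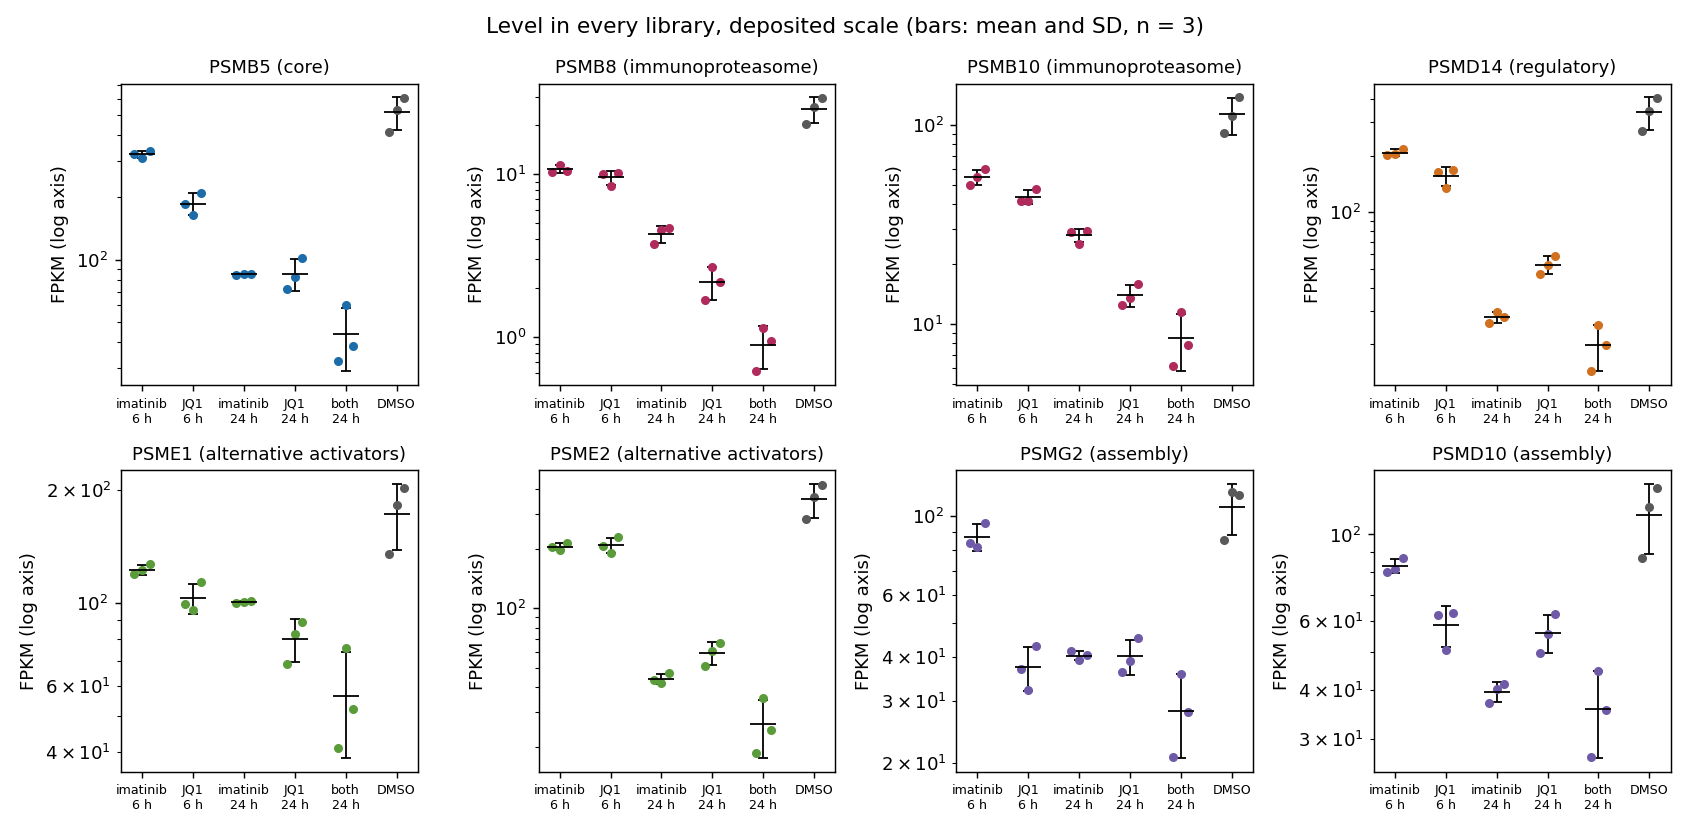
FPKM on a log axis of 8 proteasome genes in every library (points), with mean and SD of 3 libraries (bars), deposited scale. PSME1 stays at 99.95 to 101.5 FPKM after 24 h of imatinib while PSME2 lies at 42.2 to 47.3. The 3 groups of 24 h lie below DMSO in all 8 genes. By the limma call, a different measure, 72.1% to 86% of all tested genes fell in these groups.

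The assembly chaperones split. With imatinib at 24 h all 7 fell, where 72.1% of all genes did, but their median of -1.65 lay near the -1.503 of all genes. After rescaling 3 were lower and 3 higher, against 38.9% and 43% of genes. The 20S chaperone PSMG1 fell by 2.88 ± 0.19, and its partner PSMG2 by 1.36 ± 0.18. Rescaled, PSMG1 was at -1.12 ± 0.05 and PSMG2 at 0.39 ± 0.07. PSMG2 had 41.4, 39.1 and 40.5 FPKM after 24 h of imatinib and 36.2, 38.9 and 45.2 FPKM after 24 h of JQ1, against 85.8, 117 and 115 FPKM in DMSO. PSMG1 had 38.7, 44.1 and 40.6 FPKM and 63.1, 66.9 and 73.7 FPKM in the same drug groups, against 238, 328 and 374 FPKM in DMSO. With imatinib at 24 h the libraries of the partners overlapped in level, whereas each DMSO library had more PSMG1.

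PSMG3 and PSMG4 form the second pair of 20S chaperones and parted too. With imatinib at 24 h PSMG3 fell by 2.66 ± 0.19 and PSMG4 by 1.33 ± 0.18, and rescaled they were at -0.91 ± 0.05 and 0.36 ± 0.12. With JQ1 at 24 h PSMG3 fell by 1.97 ± 0.19 and PSMG4 by 2.12 ± 0.18, and rescaled they were at -0.31 ± 0.05 and -0.56 ± 0.12. PSMG4 had 12.997, 13.4 and 13.8 FPKM with imatinib and 5.31, 7.94 and 9.09 FPKM with JQ1, against 30.1, 36.9 and 39.1 FPKM in DMSO, with no overlap.

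Of the chaperones of the 19S base, PSMD10, known as gankyrin, and PSMD9 were among the members least below DMSO. PSMD10 had 37.1, 40.2 and 41.5 FPKM after 24 h of imatinib and 49.9, 55.8 and 62.4 FPKM after 24 h of JQ1, against 86.9, 117 and 131 FPKM in DMSO. Its log2 change was -1.45 ± 0.18 with imatinib, -0.97 ± 0.18 with JQ1, no call, and -1.63 ± 0.18 with both, and rescaled 0.29, 0.68 and 0.71, all higher. PSMD10 after 24 h of JQ1 became a call without DMSO replicate 1, at -1.14, and without JQ1 replicate 3, at -1.05. PSMD9 fell by 1.65 ± 0.18, 1.21 ± 0.18 and 1.95 ± 0.18, and rescaled it was at 0.05, no call, 0.39 and 0.31. PSMD5 went the other way. It had the lowest change of all members after 6 h of imatinib, -1.41 ± 0.18, with 36.7, 35.0 and 39.7 FPKM against 81.8, 101 and 121 FPKM in DMSO, and fell by 2.53 ± 0.18, 2.55 ± 0.18 and 3.33 ± 0.18 at 24 h.

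Summed over the 7 chaperones, assembly genes amounted to 11.4% ± 0.103 of the core sum after 24 h of imatinib, 8.91% ± 0.0742 after 24 h of JQ1 and 11.2% ± 0.110 with both, against 8.08% ± 0.144 in DMSO (mean ± SD, n = 3 each). At 6 h it was 7.10% ± 0.165 with imatinib and 6.64% ± 0.0921 with JQ1. The groups at 24 h lay above DMSO and those at 6 h below it, in every library.

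Set directly against each other at 24 h, the drugs separated core from immunoproteasome. JQ1 over imatinib, 3 members rose, PSMA7 by 1.15 ± 0.19, PSMD2 by 1.09 ± 0.20 and PSMB3 by 1.06 ± 0.19, where 3.59% of all genes did. Of the members 0 of 48 fell (limma), and 5 had a lower level at an unadjusted p below 0.05. For neither count is the share of all genes given here. After rescaling 38 members were higher with JQ1 than with imatinib, against 33.4% of genes, and 8 were lower, against 41.4%. The higher ones included 13 of 14 core and 17 of 17 regulatory subunits, with medians of 0.53 in both classes. The lower ones included all 3 immunoproteasome subunits, with PSMB10 at -1.07 ± 0.07, PSMB9 at -0.88 ± 0.10 and PSMB8 at -0.88 ± 0.09. PSMG4 was at -0.92 ± 0.12 and PSME1 at -0.43 ± 0.05. On the deposited scale PSMB8, PSMB9 and PSMB10 were at -0.74, -0.76 and -0.95, no calls, though in each the 3 JQ1 libraries lay below the 3 imatinib libraries.

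**Figure D4:**
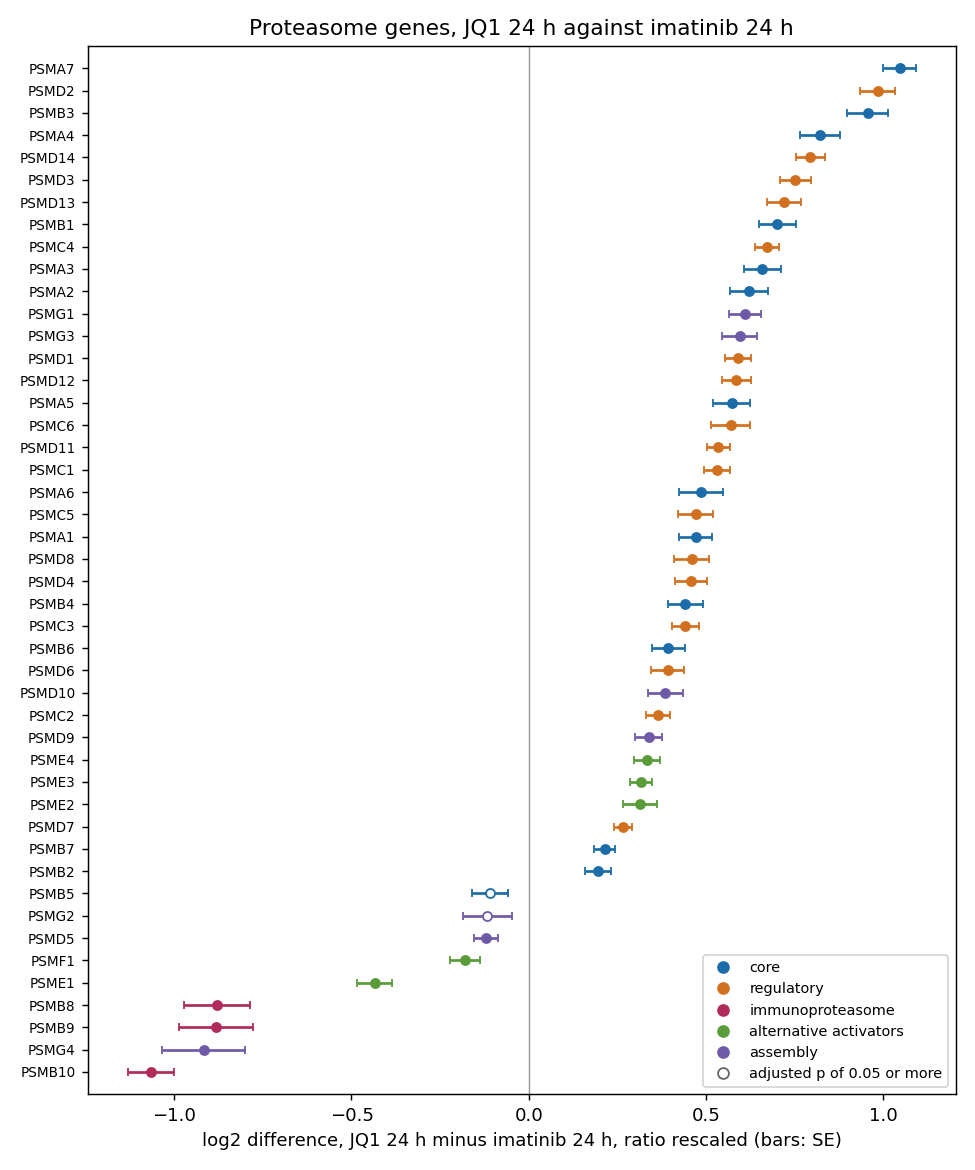
Log2 difference between JQ1 and imatinib at 24 h after ratio rescaling, with SE (bars), for the tested members with a role, colored by class. PSMA7 is highest at 1.05 and PSMB10 lowest at -1.07, and the 3 immunoproteasome subunits are among the 4 lowest.

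The change between times was tested within each drug. The only DMSO group has no stated time, so hours in culture and hours of drug cannot be told apart. From 6 h to 24 h of imatinib 42 members fell, where 33.4% of all genes did, including all 31 core and regulatory subunits. From 6 h to 24 h of JQ1 30 members fell, where 14.2% of genes did, including 23 of these 31. After rescaling 40 members were lower and 3 higher between the times of imatinib, against 32.3% and 41.7% of genes, with a median of -0.95. Between those of JQ1 36 were lower and 6 higher, against 37.4% and 36.1% of genes, with a median of -0.55. On the deposited scale PSMD14 fell by 2.85 ± 0.19 between the times of imatinib and by 1.54 ± 0.19 between those of JQ1. PSMB10 was at -0.95 ± 0.19 between the times of imatinib, no call, and fell by 1.58 ± 0.19 between those of JQ1. PSME1 was at -0.28 ± 0.19 and -0.36 ± 0.19, no calls.

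The direction of most members in the combination against imatinib alone depended on the scale. On the deposited scale 4 of the 48 fell with both drugs against imatinib alone, where 14.5% of all genes did. They were PSMB10 at -1.64 ± 0.19, PSMB8 at -1.49 ± 0.16, PSMB9 at -1.47 ± 0.18 and PSMG4 at -1.29 ± 0.18. Of the 31 core and regulatory subunits 0 fell (limma), and 16 had a lower level at an unadjusted p below 0.05. Under that looser rule the share of all genes is not given here. PSMB5 came nearest to a call, at -0.998 ± 0.20, just short of the log2 threshold. After rescaling 26 members were higher and 11 lower, against 32.2% and 40.6% of genes. The higher ones included 19 of the 31 core and regulatory subunits, of which 3 were lower, while PSMB8, PSMB9 and PSMB10 were lower on this scale too, at -1.29, -1.09 and -1.11. Against JQ1 alone 20 members fell with both drugs, where 7.35% of genes did. PSMD14 fell by 1.39 ± 0.19, PSMB3 by 1.31 ± 0.19 and PSMD2 by 1.29 ± 0.20, whereas PSMB8, PSMB9 and PSMB10 were at -0.74, -0.71 and -0.69, no calls. After rescaling 38 members were lower and 3 higher than with JQ1 alone, against 25.4% and 25.8% of genes, including all 31 core and regulatory subunits among the lower ones. The spread of the libraries with both drugs was wide, with 32.1 to 59.9 FPKM of PSMB5.

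The interaction at 24 h is the log2 change with both drugs minus that with imatinib minus that with JQ1, and a positive value means that the combination fell less than the 2 changes added together. It rose past the threshold in 41 members, where 46.8% of all genes did. The member median was 1.72, against 0.95 over all genes. The core ranged from PSMB4 at 1.29 ± 0.27 to PSMA7 at 1.94 ± 0.27, and the regulatory class from PSMD4 at 1.24 ± 0.28 to PSMD12 at 2.30 ± 0.27. PSMB8, PSMB9 and PSMB10 were at 1.55 ± 0.22, 1.16 ± 0.26 and 1.28 ± 0.27, and PSME1 at 0.22 ± 0.27, no call. After rescaling 38 members had a positive interaction and 4 a negative one, against 32.8% and 37.2% of genes. PSMD12 was then at 1.23 ± 0.06, PSMB9 at 0.00 ± 0.15, no call, and PSME1 at -0.84 ± 0.07. On that scale 5 members were past 1 log2, for which the share of all genes is not given here.

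Proteasome partners whose symbols the name rule does not reach were taken from a list of their own. Of that list of 19, 17 were tested, of which 16 fell after 24 h of imatinib, 16 after 24 h of JQ1 and 17 with both, where 72.1%, 75.3% and 86% of all genes did. After rescaling 12 were lower and 2 higher with imatinib, against 38.9% and 43% of genes. With JQ1 11 were lower and 3 higher, against 42.4% and 36.6%, and with both 13 and 3, against 44.4% and 38.7%. The ubiquitin receptor ADRM1 was lowest each time, at -3.50, -2.55 and -3.80. The core maturation factor POMP was at -2.92, -2.03 and -3.17, and the deubiquitinases USP14 and UCHL5 at -2.77 and -2.78 with imatinib. PAAF1, which binds the ATPases, was the highest, at -0.98, no call, with imatinib and 0.73 after rescaling. Medians of the list were -2.33, -1.87 and -2.65, against -1.503, -1.49 and -2.05 over all genes.

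Genes that control proteasome transcription had medians nearer to those of all genes. All 10 of the list fell at 24 h of imatinib, JQ1 and both, where 72.1%, 75.3% and 86% of all genes did. Medians were -1.80, -1.72 and -2.27, against -1.503, -1.49 and -2.05 over all genes. After rescaling 6 were lower and 3 higher with imatinib, against 38.9% and 43% of genes. NFE2L1, the gene of NRF1, was at -1.33 with imatinib, -1.61 with JQ1 and -2.09 with both, and rescaled at 0.41, 0.03 and 0.25. DDI2, the protease that releases NRF1 from the membrane, was at -2.58, -2.08 and -2.50. MAFG, whose protein pairs with NRF1 on DNA, was the lowest of the list each time, at -2.62, -2.76 and -3.51. Of 9 genes of ubiquitin and p97, all fell at 24 h in each drug group, where 72.1%, 75.3% and 86% of all genes did, and their median with imatinib was -1.92. After rescaling 5 were lower and 2 higher with imatinib, against 38.9% and 43% of genes. The higher ones included RPS27A, a ubiquitin fusion gene, at -1.43 before and 0.35 after rescaling. The lowest with imatinib were UFD1L at -2.84 and NPLOC4 at -2.77, cofactors of p97, and VCP, the p97 unfoldase itself, at -2.69.

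The non-proteasome genes PSMC3IP and PSMG3-AS1 were named after their values were seen. PSMC3IP had 1.59, 2.32 and 1.75 FPKM after 24 h of imatinib and 3.40, 4.26 and 5.64 FPKM after 24 h of JQ1, against 21.3, 27.9 and 33.0 FPKM in DMSO, a log2 change of -3.28 ± 0.20 with imatinib. PSMG3-AS1 had 1.38, 1.37 and 1.62 FPKM after 24 h of imatinib, against 1.45, 1.14 and 1.81 FPKM in DMSO, and overlapped. It is named as antisense to PSMG3, and no source used here says whether reads were counted by strand, so reads of the pair may not be told apart. The annotation GENCODE 29 names 30 pseudogenes of 10 members, 13 of them of PSMC1, 3 of PSMD10 and 2 of PSME2, and levels of those genes are uncertain to the extent that reads were shared.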

How the data were processed

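RNA was measured in 18 libraries of GIST-T1 in 6 groups of 3. Per the labels' protocols, ERCC spike-ins were added to RNA normalized to cell count and stranded poly(A) libraries were sequenced from a single end, 75 bases a read. Per the submitters' processing notes, STAR, Cufflinks and hg19 were used. The authors deposited FPKM values, 1 column per library, and no source used here says how they were normalized. Every value lay above 0, with 4144 to 4166 genes per library sharing a lowest value near 0.1. Depth in reads is unknown, and library-to-library spread sets the precision. The number in 1 column of the JQ1 24 h group does not match the labels, so that library was kept as unnumbered.

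Members and lists were chosen with earlier results of these data known. Genes that reached 1 FPKM in 3 or more libraries were fitted with limma 3.58.1 (R 4.3.3) on log2(FPKM + 1), with a mean for each group, a variance trend and two-sided tests adjusted by Benjamini-Hochberg over 12771 genes. The added 1 understates the change of low genes. Ratio rescaling divided each library by the median, over genes, of its ratio to the geometric mean library, using the 9508 genes at 1 FPKM or more in every library. No set test was run. Named genes were the catalytic, immunoproteasome, activator and assembly genes with PSMD4, PSMD14, PSMA7 and PSMC3, the lowest and highest member of each role group in each comparison with DMSO, and up to 4 members of each list. The members named in the drug-against-drug, time and interaction comparisons, and PAAF1, NFE2L1, B2M and RPS27A, beyond these, were chosen after their values were seen. In data simulated with independent noise, a small part of the well-expressed genes was changed by more than the threshold in a single group. Every changed gene was recovered. Shifts of whole libraries, as in these data, and changes of low genes were not simulated. Alternatives were a total-based rescaling without MIR1244, a pseudocount of 0.1, other filters, a replicate block, a fit of the compared groups only and leaving out each library. Promoters came from RefSeq on GRCh38.p14. Other cell lines or reads were not analysed here. Some genes of the lists are not reported here by name.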

Additional observations from a re-analysis of the deposited data

Results flagged for a closer look

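The sets of members below differed between conditions by a test of the difference itself. The interaction of imatinib and JQ1 at 24 h passed the threshold, with positive values, in 41 of 48 tested members (limma), where 46.8% of all tested genes did. Between 24 h and 6 h of imatinib 42 members fell, where 33.4% of genes did, and between 24 h and 6 h of JQ1 30 fell, where 14.2% of genes did. With no DMSO group for each time, hours in culture and hours of drug cannot be told apart. After ratio rescaling the interaction was positive in 38 members and negative in 4, against 32.8% and 37.2% of genes. On that scale 40 members were lower and 3 higher between the times of imatinib, against 32.3% and 41.7% of genes, and 36 were lower and 6 higher between those of JQ1, against 37.4% and 36.1%.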

How the results depend on the processing

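Of the 16 member counts tested under each alternative, all stayed within 1.5 times the reported count under a pseudocount of 0.1, no filter, a mean of 5 FPKM or more, a fit of the compared groups only and the replicate block. With the replicate block 7, 30, 46, 46 and 47 members fell against DMSO, in the order 6 h of imatinib, 6 h of JQ1, 24 h of imatinib, 24 h of JQ1 and both, and the interaction rose in 41. The main fit did not pair libraries by replicate number, and 2 of 14 same-numbered pairs with DMSO had a correlation of deviations over 0.1. With 3 libraries a group this check cannot show whether same-numbered libraries were handled together. Scaling moved the counts most. With the same threshold of 1 log2, 0, 0, 21, 6 and 18 members fell after ratio rescaling and 0, 1, 20, 9 and 24 with 1 total without MIR1244, and the interaction rose in 5 and 4. For 6 h of JQ1 at any size, 5 members were higher and 31 lower with 1 total without MIR1244. Shares of all genes under these settings are not given here, so these counts cannot be set against genes in general. Leaving out a library in turn gave 4 to 10 members falling after 6 h of imatinib, 4 of them without DMSO replicate 3. The log2 ratio of PSMB8 to PSMB5 after 24 h of imatinib minus DMSO ran from -0.010 to 0.15, turning negative without imatinib replicate 3, and that of PSMB9 to PSMB6 with both drugs was 0.15 with 1 FPKM added. The cause of these moves was not tested.

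Among the leave-one-out values of 150 named changes, 13 became calls, 17 lost the call and 2670 kept their side. Signs of these changes turned only under rescaling. After ratio rescaling, imatinib at 6 h turned for PSME2 (0.00057), PSMB7 (0.0016), PSMB2 (0.0076), PSMA4 (0.041), PSMC3 (0.060), PSMD14 (0.082), PSMB5 (0.12), PSMA7 (0.12), PSMC6 (0.13), PSMD9 (0.16), PSMA2 (0.19), PSMD7 (0.19), PSMB6 (0.21), PSMD4 (0.27), PSME1 (0.30), PSMG4 (0.31), PSMB1 (0.31), PSMD10 (0.36) and PSMG2 (0.50). JQ1 at 6 h turned for PSMB6 (0.027), PSMF1 (0.054), PSMC4 (0.088), PSMD4 (0.10), PSMG1 (0.11), PSMD2 (0.14), PSMD10 (0.19), PSMD8 (0.21), PSMA7 (0.24), PSMA2 (0.30), PSME2 (0.35), PSMB3 (0.36), PSME1 (0.37) and PSMD9 (0.46). Imatinib at 24 h turned for PSMD9 (0.052), PSMF1 (0.19), PSMD10 (0.29), PSMG4 (0.36), PSMG2 (0.39) and PSME1 (1.0001), JQ1 at 24 h for PSMF1 (0.0081), PSMD4 (0.031), PSMB1 (0.14), PSMG2 (0.27), PSMD9 (0.39), PSME1 (0.57) and PSMD10 (0.68) and both for PSMF1 (0.14), PSMD9 (0.31), PSMG2 (0.44), PSMD10 (0.71) and PSME1 (0.73). With 1 total without MIR1244, imatinib at 6 h turned for PSMA4 (0.0050), PSMC3 (0.024), PSMD14 (0.047), PSMA7 (0.086), PSMB5 (0.086), PSMC6 (0.090), PSMD9 (0.12), PSMA2 (0.15), PSMD7 (0.15), PSMB6 (0.17), PSMD4 (0.24), PSME1 (0.26), PSMB1 (0.27), PSMG4 (0.27), PSMD10 (0.33) and PSMG2 (0.46). JQ1 at 6 h turned for PSMA7 (0.027), PSMA2 (0.094), PSME2 (0.14), PSMB3 (0.15), PSME1 (0.16) and PSMD9 (0.25). Imatinib at 24 h turned for PSMD9 (0.091), PSMF1 (0.23), PSMD10 (0.33), PSMG4 (0.40), PSMG2 (0.43) and PSME1 (1.04), JQ1 at 24 h for PSMB1 (0.061), PSMG2 (0.20), PSMD9 (0.32), PSME1 (0.49) and PSMD10 (0.60) and both for PSMF1 (0.049), PSMD9 (0.22), PSMG2 (0.35), PSMD10 (0.62) and PSME1 (0.63).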
